A study of Saccharomyces cerevisiae with 24 samples.

Results

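Budding yeast makes methionine, cysteine and S-adenosylmethionine from inorganic sulfate or from organic sulfur compounds that it imports, and 35 genes of this network were followed across 8 strains that carry different actins. The 35 are MET, STR, CYS and SAM genes, transporters of methionine and sulfate, related sulfur genes and 6 regulators (MET4, MET28, MET30, MET31, MET32 and CBF1). They were picked by gene identity, not by their values, and lie off chromosomes VI and XIII, whose genes were raised as a group in some libraries. All 35 were among the 5843 genes of the haploid table and the 5730 of the diploid table, and all 35 passed the filter on low values in both. By role, 9 act in sulfate uptake and assimilation, 4 in homocysteine and methionine synthesis, 5 in transsulfuration and glutathione, 5 in the S-adenosylmethionine cycle, 6 in uptake and use of organic sulfur, and 6 are regulators.

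The strains are 6 haploids, namely the wild type ScNI and the strains Sc[Sp], Sc[At], Ca, Sc[Ca] and N2, and 2 diploids, namely the wild type Sc/Sc and N2/Ca. Apart from calling ScNI and Sc/Sc wild type, the labels name strains only by these codes and say that they differ in actin; they give no alleles, promoters or clones, and the codes are used here as names. Every strain had 3 libraries, and all 24 came from cells grown alike: log phase in rich medium with 2% dextrose at 25 °C. Poly(A) RNA was sequenced, and values are normalised counts. Haploids and diploids stand in separate tables, each scaled on its own, and levels were compared only within a ploidy. In bulk RNA of a culture, fewer cells that express a gene and less RNA per cell cannot be told apart.

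In the textbook account, sulfate is taken up, activated, reduced to sulfide and joined to an activated homoserine to give homocysteine, which is methylated to methionine. Homocysteine and cysteine are exchanged by transsulfuration, and methionine becomes S-adenosylmethionine, the methyl donor of the cell. Met4 activates the genes but does not bind DNA well by itself: Cbf1, with Met28, and the related zinc finger proteins Met31 and Met32 bring it to promoters, and the ubiquitin ligase subunit Met30 holds it in check when sulfur amino acids are plentiful. Rich medium supplies methionine, and the network is known to be held low there.

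Depth ran from 10228523 to 15403081 reads in the 18 haploid libraries and from 12128284 to 15134814 in the 6 diploid ones. Replicate 2 of every haploid strain showed genes of the MATalpha mating type and replicates 1 and 3 those of MATa, so each strain has the same make-up. Between replicate 2 and the others 0 of 35 sulfur genes passed limma's test (1 at an unadjusted p under 0.05). Of all genes 0.499% were called, 0.224% higher and 0.275% lower. The median log2 difference of replicate 2 from the others was −0.103 over the 35, against 0.004 over all genes, and 6 of the 35 were above 0. The median log2 difference from ScNI of chromosome VI and XIII genes was 0.88 and 0.87 in Ca replicate 1, 0.86 and 0.89 in Ca replicate 2, but 0.05 and −0.01 in Ca replicate 3. In N2 these medians were 0.50 and 0.51 in replicate 1, 0.92 and 0.93 in replicate 2 and 0.89 and 0.92 in replicate 3, and in the diploid N2/Ca, against Sc/Sc, 0.41 and 0.46 in replicate 1 and between −0.00 and 0.04 in the other two. Chromosome XI genes, among them MET1 and MET14, had a median of 0.53 in Ca replicate 1. For the 35 genes, results in N2 and Ca against ScNI that rest on N2 replicate 1 or Ca replicate 3 are given with and without them.

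In ScNI the levels of the 35 genes spanned a wide range. Per kilobase of gene, the mean normalised count of the 3 ScNI libraries was lowest for SEO1 (19.7), a putative permease, MET8 (94.0) and STR3 (125). It was highest for SAH1 (7711), which breaks down S-adenosylhomocysteine, CYS4 (7684), the first enzyme from homocysteine towards cysteine, and SAM4 (6330), a homocysteine methyltransferase. On the same scale MET28 stood at 202, MUP3 at 207, MHT1 at 254, MET6 at 679 and MUP1 at 1456.

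**Figure D1:**
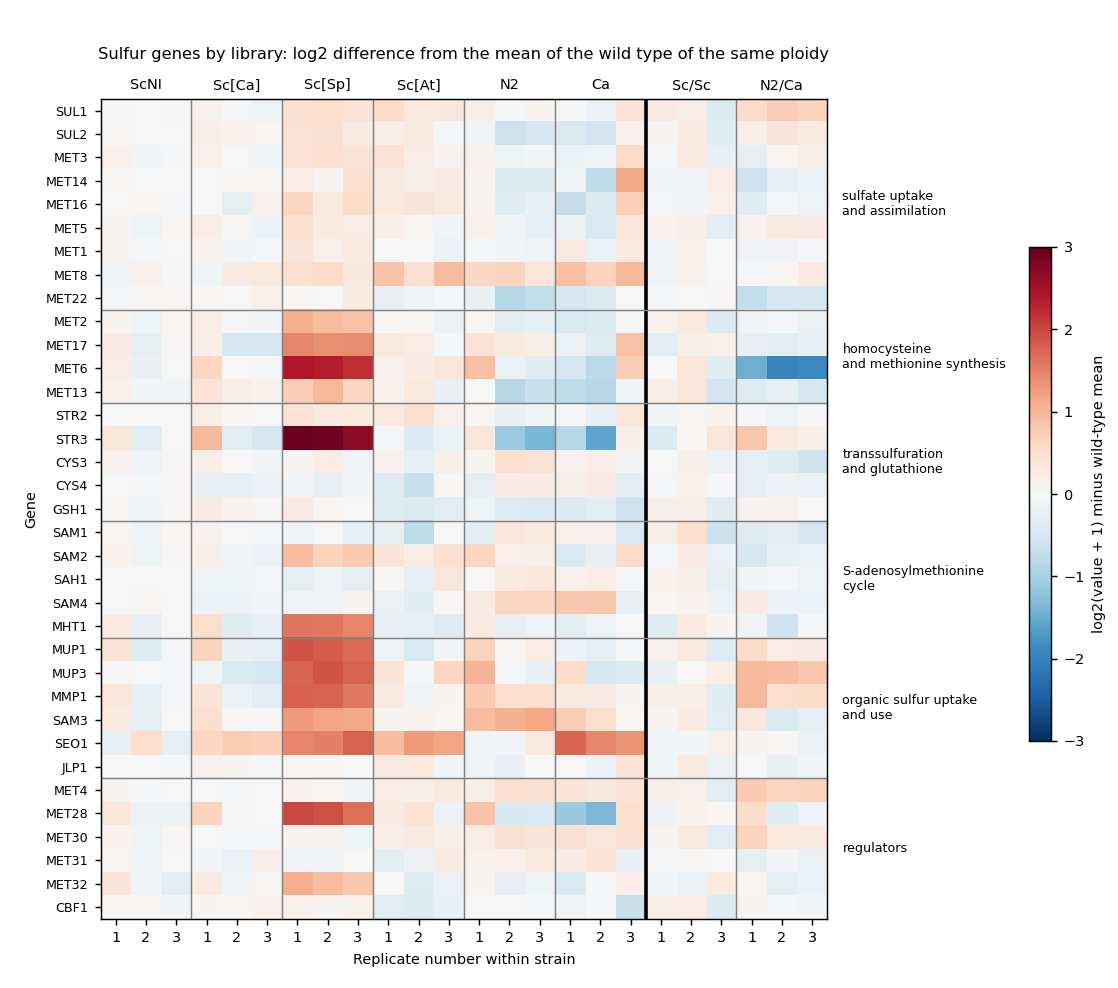
Log2 difference of each of the 35 genes (rows, grouped by role) from the mean of the wild type of its own ploidy, in each of the 24 libraries (columns; red higher, blue lower, on log2(value + 1)). The 3 Sc[Sp] columns hold a block of red from MET2 to MET13, at STR3, MHT1, the permeases and MET28, and MET6 is blue in all 3 N2/Ca columns.

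Of the 5 altered haploid strains, Sc[Sp] had the most sulfur genes that differed from wild type in the fit of all 18 haploid libraries. Without N2 replicate 1 and Ca replicate 3, Ca had 18 of 35 (51.4%, against 50.9% of all genes). Sc[Sp] was not compared with ScNI in that fit. Of the 35 genes, 16 were higher in Sc[Sp] than in ScNI and 0 were lower, which is 45.7% of them, against 21% of all 5808 tested genes called in either direction and 10.1% called higher and 10.9% called lower. Differences are on the log2(value + 1) scale, and a gene counts as called where limma's p, adjusted over all genes, is under 0.05. The median log2 difference over the 35 was 0.45, against −0.02 over all genes. Of the 16, 10 exceeded a log2 difference of 1 (2.91% of all genes did), and they ran from 0.46 for MET8 to 2.86 for STR3. By role, all 4 genes of homocysteine and methionine synthesis and 5 of 6 of organic sulfur uptake were called, but 2 of 9 of sulfate assimilation, 1 of 5 of transsulfuration and glutathione, 2 of 5 of the S-adenosylmethionine cycle and 2 of 6 regulators. The count for sulfate assimilation depended on the libraries in the fit. It was 8 of 9 without the N2 and Ca libraries, 7 of 9 with Sc[Sp] and ScNI alone and 0 of 9 with equal library totals. The first 2 of these fits called 41.7% and 47.2% of all genes and 23 of the 35 each. All were higher but SAH1, which was called lower with Sc[Sp] and ScNI alone. In both, 2 of 5 of transsulfuration and glutathione were called. The counts for methionine synthesis and organic sulfur were the same in these 3 fits. They fell with the MATa libraries alone, 2 per strain, where few genes of the whole table were called. That fit called 0 of 4 for methionine synthesis, 3 of 6 for organic sulfur and 0 of 9 for sulfate assimilation. In size, the median log2 difference was 0.40 for sulfate assimilation, 1.19 for methionine synthesis and 1.65 for organic sulfur.

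**Figure D2:**
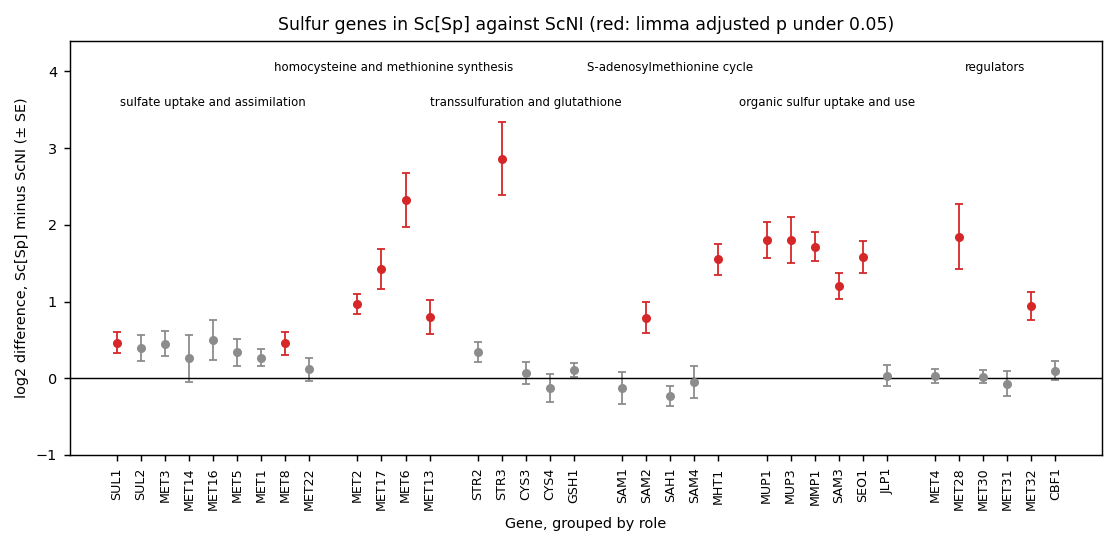
Log2 difference between Sc[Sp] and ScNI (points, with standard error) for the 35 genes grouped by role; red points passed limma's adjusted p of 0.05. All 4 homocysteine and methionine synthesis genes and 5 of 6 organic sulfur genes are red, while 7 of 9 sulfate genes are grey and lie between 0.11 and 0.50.

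All 4 genes of homocysteine and methionine synthesis were higher in Sc[Sp]. MET6 (YER091C), methionine synthase, stood at 1807, 1326 and 1564 normalised counts in ScNI replicates 1 to 3 and at 8276, 7918 and 7237 in Sc[Sp], a log2 difference of 2.33 (SE 0.35, limma adjusted p = 0.000764). Elsewhere it was at 2376, 1540.4 and 1493 in Sc[Ca], at 1738, 1843 and 2002 in Sc[At], at 2915, 1348 and 1201 in N2 and at 1098, 882 and 2593 in Ca. Every Sc[Sp] library was above every other haploid library, of which the highest was N2 replicate 1.

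MET17 (YLR303W), which joins sulfide to O-acetylhomoserine, was at 2679.6, 1868 and 2345 in ScNI and at 6234, 5986 and 6077 in Sc[Sp], higher by 1.42 (SE 0.26, limma adjusted p = 0.00307). In the other strains it was at 2604, 1588 and 1615 in Sc[Ca], at 2851, 2665 and 2183 in Sc[At], at 3075, 2727 and 2568 in N2 and at 2021, 1729 and 4200.2 in Ca. The 3 Sc[Sp] libraries lay close together and above the rest, with Ca replicate 3 nearest.

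MET2 (YNL277W), which acetylates homoserine, rose from 679, 573 and 664 in ScNI to 1334, 1231 and 1176 in Sc[Sp], by 0.97 (SE 0.13, limma adjusted p = 0.000441). It was at 744, 611 and 603 in Sc[Ca], at 653, 666 and 565 in Sc[At], at 668, 512 and 527 in N2 and at 461, 479 and 618 in Ca. Again the Sc[Sp] libraries did not overlap any other haploid library.

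MET13 (YGL125W), the reductase that makes the methyl-carrying folate used by Met6, was at 659, 563 and 564 in ScNI and at 998, 1180.4 and 929 in Sc[Sp], a difference of 0.79 (SE 0.22, limma adjusted p = 0.0211). Its values were at 798, 685 and 639.7 in Sc[Ca], at 647, 745 and 512 in Sc[At], at 598, 335 and 372 in N2 and at 347, 331 and 551 in Ca. Sc[Sp] was highest, and the 4 libraries of N2 and Ca with the highest chromosome VI and XIII medians were lowest. The call of MET13 in Sc[Sp] was lost in 5 of 13 other settings, with limma adjusted p of up to 0.215.

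STR3 (YGL184C), cystathionine beta-lyase, which leads from cysteine back to homocysteine, had the largest difference of the 35. It was at 217, 137 and 171 in ScNI and at 1352, 1299 and 1138 in Sc[Sp], higher by 2.86 (SE 0.47, limma adjusted p = 0.00139). Among the other strains it was at 337, 135 and 121 in Sc[Ca], at 169, 128 and 151 in Sc[At], at 222, 79.8 and 66.5 in N2 and at 94.2, 56.9 and 195 in Ca. The lowest Sc[Sp] library was at 1138 and the highest of the 15 others, Sc[Ca] replicate 1, at 337. The other 4 genes of the group did not pass in this comparison: STR2 differed by 0.34, CYS3 by 0.07, CYS4 at −0.13 and GSH1 by 0.11, with adjusted p from limma of 0.0672, 0.777, 0.630 and 0.441. STR2 passed without the N2 and Ca libraries and with Sc[Sp] and ScNI alone, at the same log2 difference (limma adjusted p = 0.00713 and 0.0016). In Sc[At] it also passed without the N2 and Ca libraries, by 0.30 (limma adjusted p = 0.0172), but not with Sc[At] and ScNI alone (0.0603).

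Permeases for methionine and its relatives were higher in Sc[Sp]. MUP1 (YGR055W), the high-affinity methionine permease, was at 3265, 1894 and 2377 in ScNI and 9115, 8663 and 7975 in Sc[Sp], a difference of 1.81 (SE 0.24, limma adjusted p = 0.000348). Otherwise it was at 3863, 2103 and 2038 in Sc[Ca], at 2187, 1774 and 2313 in Sc[At], at 3959, 2530.5 and 2853 in N2 and at 2163, 2012 and 2353 in Ca. Its 3 Sc[Sp] values were all above the 15 others.

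MUP3 (YHL036W), the low-affinity permease, was at 349, 345 and 327 in ScNI and at 1151, 1252 and 1153 in Sc[Sp], higher by 1.80 (SE 0.30, limma adjusted p = 0.00146). Its levels were at 311, 249.8 and 236 in Sc[Ca], at 450.3, 331 and 535 in Sc[At], at 694, 332 and 289 in N2 and at 501, 242 and 256 in Ca. No other haploid library reached the Sc[Sp] values, and N2 replicate 1 and Sc[At] replicate 3 came nearest.

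MMP1 (YLL061W), which imports S-methylmethionine, and MHT1 (YLL062C), which uses it to methylate homocysteine, are neighbours on chromosome XII that are read in opposite directions. MMP1 was at 841, 532 and 624 in ScNI and 2262, 2218 and 1974 in Sc[Sp], higher by 1.71 (SE 0.19, limma adjusted p = 7.62e-05). Its values were at 877, 576 and 516 in Sc[Ca], at 790.3, 603 and 688 in Sc[At], at 1122, 921 and 931 in N2 and at 784, 774 and 690.5 in Ca. Sc[Sp] stood apart, with all 3 N2 libraries next.

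MHT1 was at 294, 207 and 241 in ScNI and 742, 740.1 and 681 in Sc[Sp], higher by 1.55 (SE 0.20, limma adjusted p = 0.000348). Elsewhere its level was at 354, 191 and 206 in Sc[Ca], at 206, 200.2 and 186 in Sc[At], at 296, 207 and 221 in N2 and at 195, 221 and 248 in Ca. The Sc[Sp] libraries were again above all 15 others.

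SAM3 (YPL274W), the S-adenosylmethionine permease, was at 2017, 1391 and 1683 in ScNI and 4089.9, 3813 and 3696 in Sc[Sp], a difference of 1.20 (SE 0.17, limma adjusted p = 0.000523). It was at 2386, 1731 and 1635 in Sc[Ca], at 1814, 1796 and 1728 in Sc[At], at 3167, 3541 and 3722 in N2 and at 2785, 2432 and 1745 in Ca. Here Sc[Sp] overlapped N2, whose values were also above all 3 of ScNI. JLP1, a sulfonate dioxygenase and the one gene of this role that was not called, differed by 0.03.

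Of the enzymes that make S-adenosylmethionine, SAM2 was higher in Sc[Sp] by 0.79 (SE 0.21, limma adjusted p = 0.0169) and SAM1 differed by −0.12 (SE 0.21, limma adjusted p = 0.706), which did not pass. The call of SAM2 was lost in 4 of 13 other settings, with limma adjusted p of up to 0.195. Without the N2 and Ca libraries SAM2 was also called higher in Sc[At], by 0.36 (limma adjusted p = 0.0294), and SAM1, at −0.34, was not called there (0.117). The 2 genes are paralogs, and 1.82% of SAM1's stretches of 50 bases, the read length, recur in SAM2, so reads from those could be assigned to either.

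Among the 6 regulators, MET28 and MET32 were called in Sc[Sp]. MET28 (YIR017C), a cofactor of the Cbf1 and Met4 complex, was at 144, 98.7 and 99.4 in ScNI and 446, 426 and 353 in Sc[Sp], higher by 1.85 (SE 0.42, limma adjusted p = 0.00964). In the other strains it was at 178, 115 and 111 in Sc[Ca], at 136, 151 and 99.6 in Sc[At], at 204, 79.8 and 81.3 in N2 and at 51.2, 43.5 and 158 in Ca. Sc[Sp] was above all others, and the spread among the rest was wide.

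MET32 (YDR253C), which binds promoters, was at 292, 208 and 178 in ScNI and 469.8, 427 and 386 in Sc[Sp], higher by 0.94 (SE 0.19, limma adjusted p = 0.00443). It was at 269.6, 208 and 231 in Sc[Ca], at 221, 170.4 and 197 in Sc[At], at 235, 187 and 199.5 in N2 and at 162, 215 and 254 in Ca. The highest other library, ScNI replicate 1 at 292, was below the lowest Sc[Sp] library at 386.

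The other 4 regulators did not pass in Sc[Sp]. MET4 was at 1177, 1056 and 1088 in ScNI and 1193, 1155 and 1044 in Sc[Sp] with a log2 difference of 0.03 (SE 0.09, limma adjusted p = 0.83). MET30 was at 924, 776 and 888 in ScNI and 910.1, 919 and 792 in Sc[Sp] with a log2 difference of 0.02 (SE 0.09, limma adjusted p = 0.893). The values of both genes overlapped between the strains.

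MET31 (YPL038W), the relative of MET32, was at 285, 259.9 and 279 in ScNI and 257, 258 and 271 in Sc[Sp] with a log2 difference of −0.07 (SE 0.16, limma adjusted p = 0.797), and at 259.5, 238 and 314 in Sc[Ca], at 221, 245 and 327 in Sc[At], at 295, 303 and 339.9 in N2 and at 327, 366 and 230.2 in Ca. CBF1 (YJR060W) was at 1022, 1006 and 939 in ScNI and 1074, 1045 and 1061 in Sc[Sp] with a log2 difference of 0.10 (SE 0.12, limma adjusted p = 0.567), and at 1054, 1031 and 1083 in Sc[Ca], at 778, 748 and 852 in Sc[At], at 981, 1000.3 and 972 in N2 and at 919.6, 944 and 621 in Ca. The highest MET31 values were in Ca replicate 2 and N2 replicate 3, and the lowest CBF1 value was in Ca replicate 3. For CBF1 all 3 Sc[At] libraries were below all 3 of ScNI, but the fit of all 18 haploid libraries did not call it. Without the N2 and Ca libraries CBF1 was called lower in Sc[At], at −0.32 (limma adjusted p = 0.00317). It was also called with Sc[At] and ScNI alone (0.0326), but not with the replicate number as a block (0.0985).

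In sulfate uptake and assimilation the 2 genes called were near the threshold. SUL1, a sulfate permease, was higher in Sc[Sp] by 0.47 (SE 0.13, limma adjusted p = 0.0244) and MET8, an enzyme of siroheme synthesis for sulfite reductase, by 0.46 (SE 0.15, limma adjusted p = 0.0411). Neither call was stable: limma's adjusted p for SUL1 was 0.0698 with equal library totals and was above 0.05 when any 1 library of either strain was left out, and that of MET8 was 0.063 with equal totals, 0.0604 with the replicate number as a block, and likewise above 0.05 without any 1 library. The 7 other genes, SUL2, MET3, MET14, MET16, MET5, MET1 and MET22, all had log2 differences above 0, between 0.11 and 0.50, with limma adjusted p between 0.0646 and 0.615. All of them but MET22 passed without the N2 and Ca libraries, at the same log2 differences. In that fit SUL1, MET16 and MET8 were also called higher in Sc[At], by 0.40, 0.33 and 0.77 (limma adjusted p = 0.00579, 0.0387 and 0.00292). The other sulfate genes were not called in Sc[At], where MET1 and MET22 were at −0.07 and −0.15.

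**Figure D3:**
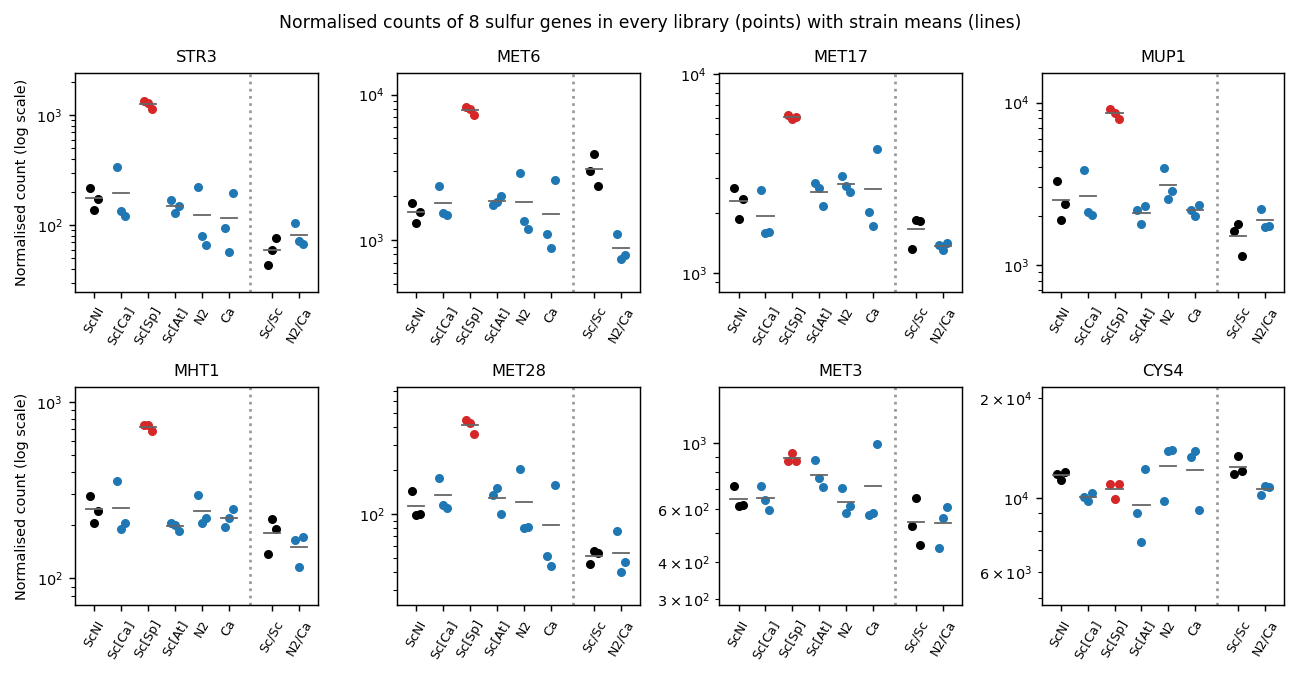
Normalised counts (log axis) of 8 of the genes in every library, with strain means as lines; Sc[Sp] is red, the wild types black, and the dotted line separates the diploid table, which was scaled on its own. For STR3, MET6, MET17, MUP1, MHT1 and MET28 the Sc[Sp] points are above all other haploid points, while MET3 and CYS4 overlap.

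Each of the 5 haploid comparisons with wild type uses the same 3 ScNI libraries. Sc[Sp] was therefore also compared with the other altered strains directly. It had 14 genes higher and 0 lower than Sc[At] (of all genes 5.25% were higher and 8.21% lower, 13.5% in all) and 14 and 0 against Sc[Ca] (6.56% and 5.61%, 12.2% in all). It had 20 higher and 4 lower than N2 (21.8% and 25.1%, 46.8% in all) and 18 and 4 against Ca (22.7% and 24.1%, 46.8% in all). With libraries scaled to the same total the split against Sc[At] was 13 and 2. Of the 35, 10, MET2, MET6, MET17, MET28, MET32, MHT1, MMP1, MUP1, MUP3 and STR3, were higher in Sc[Sp] than in each of the 5 other haploid strains, a pattern that 1.46% of all genes showed. For 12 of the 35 all 3 Sc[Sp] libraries were above all 15 other haploid libraries (5.23% of all genes), and for 0 they were all below (8.82%). The 12 are the same 10 with MET13 and SAM2, the latter by a small margin (3038 against 3014).

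Leaving out any 1 library of Sc[Sp] or ScNI left 12 to 14 of the 16 calls. With the MATa libraries alone, 2 per strain, 4 remained called, namely MUP1, MMP1, MHT1 and SEO1, out of 58 genes called in the whole table.

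Promoter sequence was read for these genes because Cbf1 binds CACGTG and Met31 and Met32 bind a site with the core CTGTGG. Within 500 bases upstream of the start codon, on either strand, CACGTG was found in 22 of 35 genes and in 6.21% of the 5749 protein-coding genes of the tables, and CTGTGG in 22 of 35 and in 13.3%. CTGTGG was present for 14 of the 16 genes called higher in Sc[Sp] and for 8 of the 19 others. CACGTG was present for 8 of the 16 and for 14 of the 19. This split follows the list of calls: without the N2 and Ca libraries, CTGTGG was present for 17 of 23 genes called higher and 5 of the 12 others, and CACGTG for 14 of 23 and 8 of 12. Both motifs were present for 11 of the 35. A match is a string of letters in this window, not evidence of binding. Stretches around the matches are shown for 5 of the genes called higher in Sc[Sp], for the pair MHT1 and MMP1, and for MET14, which holds CACGTG alone and whose log2 difference in Sc[Sp] was 0.26 (limma adjusted p = 0.57, and 0.0323 without the N2 and Ca libraries). They are from the R64 genome, each on the strand of its gene, with both motifs in capitals (CCACAG is CTGTGG read on the other strand).
MET6, chrV:342451-342667, minus strand: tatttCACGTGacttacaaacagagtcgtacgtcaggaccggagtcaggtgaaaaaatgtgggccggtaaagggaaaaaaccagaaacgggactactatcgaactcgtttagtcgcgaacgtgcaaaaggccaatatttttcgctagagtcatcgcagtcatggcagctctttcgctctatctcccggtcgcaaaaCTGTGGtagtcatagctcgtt
STR3, chrVII:156407-156442, minus strand: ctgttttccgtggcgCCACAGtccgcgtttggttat
MUP1, chrVII:598938-599158, plus strand: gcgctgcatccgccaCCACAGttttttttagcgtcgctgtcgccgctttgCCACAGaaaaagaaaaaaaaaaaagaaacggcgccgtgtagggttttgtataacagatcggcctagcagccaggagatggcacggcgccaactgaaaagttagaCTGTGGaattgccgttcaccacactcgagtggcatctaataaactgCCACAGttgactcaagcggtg
MET17, chrXII:732227-732288, plus strand: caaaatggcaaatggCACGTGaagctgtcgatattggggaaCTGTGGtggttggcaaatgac
MET28, chrIX:384252-384418, minus strand: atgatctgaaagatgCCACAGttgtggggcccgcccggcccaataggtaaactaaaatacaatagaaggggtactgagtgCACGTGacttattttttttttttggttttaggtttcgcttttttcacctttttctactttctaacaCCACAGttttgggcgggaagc
MHT1 and MMP1, shared stretch, chrXII:17769-17821, strand of MMP1: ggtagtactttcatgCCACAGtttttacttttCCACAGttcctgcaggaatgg
MET14, chrXI:439593-439628, minus strand: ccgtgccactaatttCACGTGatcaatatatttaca
MHT1 and MMP1 share an intergenic stretch of 342 bases that holds 2 matches to CTGTGG and 0 to CACGTG. STR3 has 1 CTGTGG and no CACGTG in its window, MUP1 has 4 and none, and MET6 and MET17 have 1 of each. MET14 has 1 CACGTG and no CTGTGG, and so do MET2 and MET8, which are among the 16 called. STR2, SAM1 and JLP1 hold CTGTGG without CACGTG and are among the 19 others.

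Some of the 35 differed from wild type in other strains than Sc[Sp]. Against ScNI, Sc[At] had 2 higher and 1 lower (of all genes 8.44% were higher and 6.82% lower, 15.3% in all). N2 had 5 and 2 (16.5% and 12.6%, 29.1% in all), Ca had 4 and 1 (16% and 14.2%, 30.2% in all) and Sc[Ca] had 0 and 0 (0% and 0.0172%). In each of these the share of sulfur genes called, 8.57%, 20%, 14.3% and 0%, was below that of all genes. Without Ca replicate 3 the share in Ca was 42.9% against 46.2% of all genes, without N2 replicate 1 that in N2 was 31.4% against 37.4%, and without the N2 and Ca libraries that in Sc[At] was 25.7% against 31.1%. With Sc[At] and ScNI alone it was 22.9% against 19.7%. The median log2 difference of the 35 was 0.08 in Sc[At], 0.04 in N2, 0.02 in Ca and 0.03 in Sc[Ca], against values within 0.01 of 0 for all genes. Over all 6 comparisons with a wild type, 20 of the 35 were called at least once and 15 never, and limma's F test over the 6 haploid strains together called 24 (60.6% of all genes).

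MET8 (YBR213W) was called in 4 of the 6 comparisons with a wild type. It was at 73, 84.7 and 75 in ScNI, at 109, 113 and 98.1 in Sc[Sp] and at 70.4, 92.3 and 96.1 in Sc[Ca], at 141, 111 and 151 in Sc[At], at 119.6, 123 and 100.3 in N2 and at 146, 126 and 153 in Ca. The log2 difference was 0.77 (SE 0.15, limma adjusted p = 0.00515) in Sc[At], 0.55 (SE 0.15, limma adjusted p = 0.0138) in N2 and 0.86 (SE 0.15, limma adjusted p = 0.0013) in Ca. All 3 libraries of Sc[At], N2, Ca and Sc[Sp] were above all 3 of ScNI, while Sc[Ca] overlapped ScNI.

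SEO1 (YAL067C), a permease gene with few reads whose product is linked to resistance to ethionine sulfoxide, was at 28.7, 49.3 and 27.4 in ScNI, at 95.8, 98.5 and 118 in Sc[Sp] and at 52.3, 58.6 and 56.3 in Sc[Ca], at 65, 83.5 and 78.3 in Sc[At], at 31.3, 31.7 and 42.2 in N2 and at 117, 94.8 and 88.3 in Ca. It was higher than in ScNI in Sc[Sp] by 1.58 (SE 0.21, limma adjusted p = 0.000348), in Sc[At] by 1.13 (SE 0.21, limma adjusted p = 0.00451) and in Ca by 1.52 (SE 0.21, limma adjusted p = 0.000238). In N2 the difference was 0.04 (SE 0.21, limma adjusted p = 0.916). Ca and N2 differed directly by 1.49 (SE 0.21, limma adjusted p = 0.00441), and SEO1 was the 1 sulfur gene called between them (0.517% of all genes; 0.413% higher in Ca); fitted with those 6 libraries alone, 0 of the 35 passed, and without Ca replicate 3, 2 did. In Sc[Ca] SEO1 was at 0.70 above ScNI on the log2 scale, with an unadjusted p of 0.00398 and an adjusted p from limma of 0.953, and it was the only one of the 35 with an unadjusted p under 0.05 there.

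GSH1 (YJL101C), which makes the dipeptide precursor of glutathione, was lower in 3 strains, with log2 differences of −0.38 (SE 0.10, limma adjusted p = 0.0171) in Sc[At], −0.32 (SE 0.10, limma adjusted p = 0.0214) in N2 and −0.46 (SE 0.10, limma adjusted p = 0.00394) in Ca. Its values were 2806, 2577 and 2804 in ScNI and at 3225, 2977 and 2774 in Sc[Ca], at 2098, 2022 and 2162 in Sc[At], at 2435, 2085 and 2051 in N2 and at 2057, 2152 and 1776 in Ca. All 9 libraries of Sc[At], N2 and Ca were below all 3 of ScNI. The calls in Sc[At] and N2 were lost in 6 and 5 of 13 other settings, among them any fit without ScNI replicate 1 or 3, with limma adjusted p of up to 0.2 and 0.215, and that in Ca in 1 of 13 (0.0559). With each library scaled to the same total, the call in Sc[At] was lost (adjusted p = 0.0593) and the split there was 3 higher and 0 lower in place of 2 and 1.

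MET4 (YNL103W), the transcriptional activator, and MET30 (YIL046W), its inhibitor, were both higher in N2 and in Ca. MET4 was at 1106, 1075 and 1096 in Sc[Ca], at 1282, 1271 and 1349.6 in Sc[At], at 1241, 1557 and 1529.5 in N2 and at 1479, 1389 and 1467 in Ca, against 1056 to 1177 in ScNI. The differences were 0.38 (SE 0.09, limma adjusted p = 0.00578) in N2 and 0.38 (SE 0.09, limma adjusted p = 0.00534) in Ca.

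MET30 was at 869, 841 and 836 in Sc[Ca], at 989, 1042 and 970.1 in Sc[At], at 999, 1174 and 1134 in N2 and at 1181, 1107 and 1187 in Ca, against 776 to 924 in ScNI. It was higher by 0.35 (SE 0.09, limma adjusted p = 0.00782) in N2 and by 0.43 (SE 0.09, limma adjusted p = 0.00302) in Ca. For both genes every library of N2 and Ca was above every ScNI library. The same held for every Sc[At] library, though neither gene was called there in the fit of all 18 haploid libraries. Without the N2 and Ca libraries MET4 was called higher in Sc[At], by 0.23 (limma adjusted p = 0.0197), and MET30, at 0.22, was not (0.058). With Sc[At] and ScNI alone neither was called (0.0589 and 0.118).

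Lower in N2 was MET22, whose product removes a by-product of sulfate reduction, with a log2 difference of −0.61 (SE 0.15, limma adjusted p = 0.0092). SAM3 and MMP1 were higher in N2, by 1.05 (SE 0.17, limma adjusted p = 0.000802) and 0.59 (SE 0.19, limma adjusted p = 0.0269). The call of MMP1 was lost in 7 of 13 other settings, with limma adjusted p of up to 0.28. The fit without N2 replicate 1 was among them (limma adjusted p = 0.0706).

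**Figure D4:**
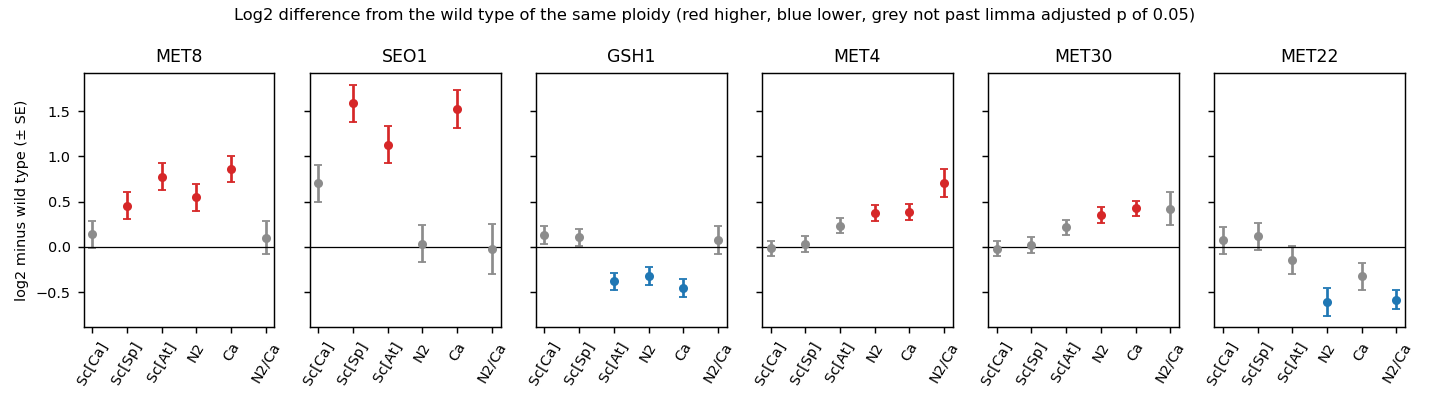
Log2 difference from the wild type of the same ploidy (points, with standard error) for 6 genes in the 6 comparisons; red passed limma's test as higher, blue as lower, grey did not pass. MET8 is red in 4 haploid strains, GSH1 blue in 3, MET4 red in N2, Ca and N2/Ca, and SEO1 red in Ca but at 0.04 in N2.

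Within N2 and Ca the sulfur genes divided by library. Ca replicate 3, the one whose chromosome VI and XIII medians were near 0, had 12 of the 35 genes more than 0.5 above the mean of the other 2 Ca libraries on the log2 scale and 6 more than 0.5 below (all genes 17.5% and 17.4%). The highest were MET28 at 1.72, MET14 at 1.55, STR3 and MET6 at 1.40 each, and MET16 at 1.29, and the lowest was SAM4 at −1.06. N2 replicate 1, with intermediate medians, had 8 above and 2 below (9.54% and 11.1%), led by STR3 at 1.60, MET28 at 1.33, MET6 at 1.20 and MUP3 at 1.16.

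Without Ca replicate 3, 15 of the 35 were called in Ca, 6 higher and 9 lower, in place of 5 (42.9%, against 46.2% of all genes in that fit). On the log2 scale, the 9 lower were STR3 at −1.22, MET28 at −1.23, MET13 at −0.81, MET16 at −0.57, SUL2 at −0.50, MET22 at −0.48, MET2 and MET14 at −0.44 each and GSH1 at −0.37. Without N2 replicate 1, 11 were called in N2 (31.4%, against 37.4% of all genes), 6 higher and 5 lower, and the 5 were STR3 at −1.23, MET22 at −0.80, MET13 at −0.75, SUL2 at −0.57 and GSH1 at −0.40. Without N2 replicate 2, 3 were called (8.57%, against 14.5%). With both of the libraries that stand apart left out, an alternative chosen after seeing the data, 18 were called in Ca, 6 higher and 12 lower (51.4%, against 50.9% of all genes), and 13 in N2, 6 higher and 7 lower (37.1%, against 49.4%). The part that the chromosomes play in these values was not tested.

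SAM4 needs care: 19.9% of its stretches of 50 bases recur in YMR321C, a gene on chromosome XIII, so reads could be assigned to either. SAM4 was at 6176, 6298 and 6097 in ScNI, 7336, 9702 and 9626 in N2 and 10882, 10860.2 and 5202 in Ca. Its level was above ScNI in the libraries with raised chromosome XIII and not in Ca replicate 3. The part that reads of YMR321C play in these values was not tested.

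**Figure D5:**
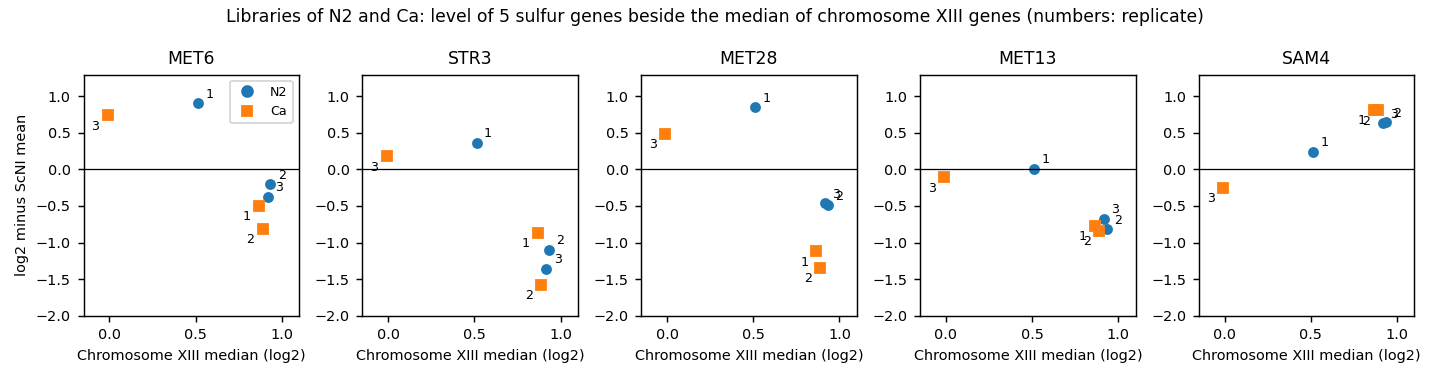
Log2 difference from the ScNI mean of 5 genes (vertical) in the 6 libraries of N2 (circles) and Ca (squares), against the median log2 difference of chromosome XIII genes in the same library (horizontal); numbers are replicates. Ca replicate 3 (median −0.01) and N2 replicate 1 (0.51) are the highest 2 libraries for MET6, STR3, MET28 and MET13 and the lowest 2 for SAM4.

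Sc[Ca] also varied by library, with chromosomes VI and XIII near 0 in all its libraries. Sc[Ca] replicate 1 had 8 of 35 genes more than 0.5 above the mean of the other 2 and 0 below (all genes 1.33% and 0.809%). They were STR3 at 1.39, MUP1 at 0.90, MHT1 at 0.83, MET17 at 0.70, MMP1 at 0.69, MET6 and MET28 at 0.65 each and SAM3 at 0.50. ScNI replicate 1 had 4 above (MUP1, MET32, MET28 and MMP1) and 0 below (1.08% and 0.861%). None of the 3 Sc[Sp] libraries had a sulfur gene that far from the other 2.

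In the diploids, 2 of the 35 genes were higher in N2/Ca than in Sc/Sc and 2 were lower (all genes 8.59% higher and 5.76% lower, 14.4% in all; median of the 35 −0.09, of all genes 0.01). MET6 had the largest difference, at 2984, 3913 and 2366 in Sc/Sc and 1097, 748 and 799 in N2/Ca, a log2 difference of −1.80 (SE 0.21, limma adjusted p = 0.00188). MET22 was also lower, at 1661, 1694 and 1743 against 1025, 1203 and 1183, a log2 difference of −0.58 (SE 0.11, limma adjusted p = 0.0105). Neither gene's groups overlapped.

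MUP3 was higher in N2/Ca, at 170.2, 200.1 and 232 in Sc/Sc and 391, 379 and 349 in N2/Ca, by 0.90 (SE 0.15, limma adjusted p = 0.0082). MET4 was higher as well, at 779, 772 and 548 against 1195, 1085 and 1107, by 0.71 (SE 0.15, limma adjusted p = 0.021). These 2 groups did not overlap either.

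The genes that led in Sc[Sp] were not called in N2/Ca apart from MET6 and MUP3. STR3 was at 43.9, 60.1 and 76 in Sc/Sc and 106, 71.5 and 67.3 in N2/Ca, MET28 at 45, 55.5 and 53.7 against 75.8, 39.6 and 46.7, and MUP1 at 1613, 1777 and 1131 against 2211, 1723 and 1743. MET17 was at 1316, 1851 and 1817 against 1376, 1299.9 and 1413, MHT1 at 138, 216 and 191 against 165, 116 and 171, and MMP1 at 393, 398 and 269 against 683, 496 and 509. MMP1 alone of these 6 did not overlap between the diploids, with a log2 difference of 0.68 (SE 0.20, limma adjusted p = 0.0529).

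SAM3 was at 1912, 2147 and 1419 in Sc/Sc and 2293, 1341 and 1485 in N2/Ca, MET2 at 559, 622 and 383 against 474, 487 and 442, and MET13 at 528, 592 and 308 against 349.9, 383 and 317. MET8 was at 87.8, 101 and 94.3 against 91.1, 98.5 and 115, and SEO1 at 26.3, 26.6 and 31.4 against 29.8, 29 and 24.3. Of the regulators, MET30 was at 679.5, 776 and 504 against 1018, 806 and 775, MET31 at 269, 283 and 283 against 227, 262 and 243, MET32 at 207, 192 and 269 against 229.8, 181 and 193 and CBF1 at 1001, 1009.5 and 655 against 918, 847 and 825. None of these passed.

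The wild-type diploid was uneven: Sc/Sc replicate 3 had 13 of the 35 genes more than 0.5 below the mean of the other 2 and 1 above (all genes 14% and 12.7%). Without it 10 of the 35 were called, 4 higher and 6 lower (28.6%, against 23.8% of all genes), and MET6 was at a log2 difference of −1.97; without N2/Ca replicate 3, 2 were called (5.71%, against 4.65%). With each library scaled to the same total, the median of all genes moved from 0.01 to 0.22 and the split was 5 higher and 1 lower, with MET6 at −1.59 and the call of MET22 lost (adjusted p = 0.0709). The diploids also differed in LEU2, a common marker gene, which was lower in N2/Ca, with a log2 difference of −2.18 (SE 0.17, limma adjusted p = 0.0003); its part in these values was not tested.

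Of 36 other genes of sulfur and one-carbon metabolism and its regulation, 8 were higher in Sc[Sp] than in ScNI and 0 lower. That is 22.2% called, against 21% of all genes (10.1% higher and 10.9% lower). The largest of the 8 differences were in the folate group that supplies one-carbon units, where 5 of 9 were higher. GCV2, a glycine decarboxylase subunit gene on chromosome XIII, was at 583, 611 and 534 in ScNI and 2145, 2771 and 1906 in Sc[Sp], higher by 1.96 (SE 0.21, limma adjusted p = 7.62e-05). GCV1 was higher by 1.78 (SE 0.41, limma adjusted p = 0.00956), MTD1 by 1.71 (SE 0.25, limma adjusted p = 0.000523), SHM2 by 1.32 (SE 0.16, limma adjusted p = 0.00014) and ADE3 by 0.35 (SE 0.10, limma adjusted p = 0.0219).

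MET10, the other subunit gene of sulfite reductase, which lies on chromosome VI, was higher in Sc[Sp] by 0.66 (SE 0.11, limma adjusted p = 0.00157), while MET5, its partner, was not called, with 0.34 (SE 0.18, limma adjusted p = 0.179). ADI1 of methionine salvage was higher by 0.43 and ECM38 of glutathione breakdown by 0.53. The remaining groups, namely homoserine supply, other sulfur sources, thioredoxin and the subunits and partner of the ubiquitin ligase that Met30 belongs to, had 0 called in Sc[Sp]. In the other comparisons with a wild type the 36 had 0 higher and 0 lower in Sc[Ca], 3 and 3 in Sc[At], 3 and 6 in N2, 4 and 12 in Ca, and the diploid N2/Ca had 0 and 10. As shares these were 16.7% against 15.3% of all genes in Sc[At], 25% against 29.1% in N2, 44.4% against 30.2% in Ca and 27.8% against 14.4% in N2/Ca. By direction, 16% of all genes were higher and 14.2% lower in Ca, and 8.59% higher and 5.76% lower in N2/Ca. In Ca, all 4 of the ubiquitin ligase genes were lower, with log2 differences from −0.22 for CDC34 to −0.46 for HRT1. For the 36, results without N2 replicate 1 or Ca replicate 3 are not given. In N2/Ca, the 3 homoserine genes HOM2, HOM3 and HOM6 were lower, with log2 differences of −0.97, −0.39 and −0.49, and so were GCV1, GCV2, GCV3 and SHM2, with −0.89, −1.05, −0.98 and −0.57.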

How the data were processed

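RNA was measured in 24 libraries, 3 for each of 8 strains. Per the submitters' processing notes, reads were handled with HISAT2 2.2.1, Trimmomatic 0.39, bcl2fastq 2.20.0.422 and FastQC 0.11.9 on build R64, and with DESeq2 1.28.0. The sources used here do not give the counting tool, the annotation or the strand setting. Per the labels' protocols, libraries came from 500 ng of total RNA by a stranded method with 10 PCR cycles and were read as 50 bases. The authors deposited signal values, normalised counts per gene, in a haploid and a diploid table that were scaled separately. Within a library, 100% of values were whole multiples of 1 step (tolerance 0.001), and depth is the sum of these multiples. No test on counts was used. The diploid columns headed N19_Ca were taken as N2/Ca, the only diploid strain in the labels that holds Ca; 0 columns were left out.

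Genes with a mean of at least 10 were tested, 5808 haploid and 5727 diploid, without the rows of introduced actin genes. The test was limma 3.58.1 in R 4.3.3 on log2(value + 1) with its trend option, all 18 haploid libraries in 1 fit and the 6 diploid ones in another, two-sided, with Benjamini-Hochberg adjustment over all genes tested and a threshold of 0.05. Log2 differences on this scale understate changes of genes with few reads. Simulated data were run through the same functions as a test. Whether replicates are separate cultures or clones is not given, so p-values measure the spread between these samples. In haploids it includes the mating type of replicate 2, and in N2, Ca and N2/Ca the chromosome VI and XIII medians differed between replicates. The rest of the spread may be technical. Replicate numbers are in the titles. Libraries with the same number deviated together (lowest correlation over 0.1) in Sc[Ca], Sc[Sp], Sc[At] and N2 against ScNI (0.50, 0.39, 0.40 and 0.31) and in Sc[Sp] against Sc[At], Sc[Ca] and N2 (0.32, 0.52 and 0.26), and did not throughout in Ca against ScNI (0.06), Ca against N2 (−0.31), Sc[Sp] against Ca (0.07) and N2/Ca against Sc/Sc (−0.07).

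Values in every library are given for the 14 genes with the largest called difference from a wild type and for the 6 regulators; the others are given by count, range or called value. The genes, lists and tests were chosen with earlier results of these data known. Other settings were log2(value + 5), no filter on low values, a replicate block, the 2 compared strains alone, no N2 or Ca libraries, each library left out in turn and, added after seeing the data, MATa libraries alone, no N2 replicate 1 and Ca replicate 3, and equal library totals. Motifs were searched in the 500 bases before each start codon in the R64 genome with Python 3.11.15.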

Additional observations from a re-analysis of the deposited data

Results flagged for a closer look

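Sc[Sp] differed from each of the other altered haploid strains when tested directly by limma: 14 of the 35 sulfur genes were called against Sc[At], 14 against Sc[Ca], 24 against N2 and 22 against Ca. Of these, 0 were lower in Sc[Sp] in the first 2 comparisons and 4 in each of the last 2, where MET4, MET30 and SAH1 were among the lower genes both times. The call of SAH1 was lost in 3 of 13 other settings against N2 and in 8 of 13 against Ca.

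SEO1 differed between Ca and N2 by 1.49 on the log2 scale (SE 0.21, limma adjusted p = 0.00441), with all 3 Ca libraries above all 3 N2 libraries.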

How the results depend on the processing

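Across 110 called values of single genes, 1418 values under other settings had 0 reversals, 216 that no longer passed and 1202 that did. log2(value + 5) and no filter changed no call. A count model of the reads (edgeR, DESeq2) was planned. It ran for a time and was then removed, and no result of it is used here. The deposited values are normalised, and a check of the columns did not accept all of them as whole reads. By the step described above, 100% of values in every library were whole multiples. The replicate block gave 15 called genes in Sc[Sp] against ScNI, without MET8, and in paired comparisons of Sc[Sp] it gave 14 against Sc[At] (MET13, Sc[Sp] against Sc[At], was lost at limma adjusted p = 0.056, and 1 other gene was gained) and 23 against N2 (SAM4, Sc[Sp] against N2, was lost at 0.0616); it changed no other call in a paired comparison. Counts that moved by over 1.5 times were as follows. With only the 2 strains compared, 3 genes were called in Sc[Ca], 8 in Sc[At] and 0 between Ca and N2; without the N2 and Ca libraries, 9 in Sc[At], and of 9 sulfate genes 8 in Sc[Sp] in place of 2; with equal library totals, 8 in Ca. With the MATa libraries alone, Sc[Sp] had 4, Sc[At] 0, N2 0 and Ca 2 against ScNI, Ca against N2 had 0, Sc[Sp] had 2 against Sc[At], 1 against Sc[Ca], 5 against N2 and 13 against Ca, and the F test called 9. Without N2 replicate 1 and Ca replicate 3, N2 had 13 and Ca 18. The cause was not tested; the MATa setting has 2 libraries a strain.

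Leaving out 1 library at a time gave 12 to 14 called genes in Sc[Sp] against ScNI, 0 in Sc[Ca], 2 to 3 in Sc[At], 3 to 11 in N2, 5 to 15 in Ca and 2 to 10 in N2/Ca; 1 to 2 for Ca against N2; 10 to 14 for Sc[Sp] against Sc[At] and against Sc[Ca], 18 to 27 against N2 and 18 to 28 against Ca; 22 to 29 by the F test and 0 between replicate 2 and the others. SEO1, with 27.4 to 49.3 normalised counts in ScNI, is limited by depth.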
